A study of Homo sapiens with 6 samples.

Results

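MYC binding was examined across a stretch of the short arm of chromosome 6, from 25 to 34 Mb in hg19, that is known for its histone genes, its tRNA genes and the major histocompatibility complex (MHC). The peak lists of 3 MYC libraries were used, and every peak whose summit (its highest point) fell between these borders was taken. Peaks of the lists that shared at least 1 bp were merged into places. This gave 228 places of 27801 in the whole genome, built from 204, 140 and 148 peaks of replicates 1, 2 and 3. The stretch was split at 29 Mb into a histone and tRNA part of 93 places and an MHC part of 135 places, and the remaining 1219 places of chromosome 6 served for comparison. These part names come from what the stretch is known to hold. No hg19 gene annotation was used here, so the names were not checked against genes and no place is assigned to a gene.

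The cells were ONS76, an established human medulloblastoma line engineered with Inducible SOX2, and this construct was shared by all samples. The labels list 3 chromatin immunoprecipitations with the antibody MYC (Y69) and 3 with Normal IgG, and name no treatment or time. The MYC libraries were used, and the IgG libraries were not analysed here. The study did not map MYC with SOX2 elevated, and its methods describe immunoprecipitations from the same chromatin batch that were combined. No source used here says whether the 3 MYC libraries go back to separate cultures, so the SD and the tests below cover the spread between libraries, which may be technical.

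MYC is a transcription factor that binds DNA as a dimer with MAX, with a preference for the E-box CACGTG, and is found mostly at active promoters. The large histone cluster of chromosome 6 supplies the core histones H2A, H2B, H3 and H4 and the linker histone H1, which are made in bulk while DNA is copied. Nearby tRNA genes are read by RNA polymerase III, an enzyme whose activity MYC is known to raise. The MHC holds the class I and class II genes, which present peptides to T cells, and between them the gene-dense class III stretch with complement, cytokine, heat shock and many housekeeping genes. Butyrophilin and zinc finger genes also lie among the histone and tRNA genes.

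The gene families can be described by name from the RefSeq annotation of GRCh38.p14, without positions. It places 55 of the listed core and linker histone genes on chromosome 6. Of all 465 tRNA genes it lists, 155 are on chromosome 6, and chromosome 1 follows with 98. The E-box letters CACGTG, which read the same on both strands, were searched in RefSeq promoters from 250 bases before to 50 bases after each start, and a gene counted when any of its promoters held them. They were present for 0 of 50 histone genes with a promoter in the table, against 8.77% of 27305 genes in all. The count was 0 of 12 for MHC class II, which presents peptides taken up from outside the cell, 0 of 6 for MHC class I, and 0 of 5 for antigen processing genes. On the list headed RNA, translation and ribosome it was 4 of 15 (ABCF1, EHMT2, GNL1 and WDR46). EHMT2 is a histone methyltransferase and not a gene of that heading, so this count includes a gene that was misplaced. It was also on the list for chromatin, repair and division, where it and TUBB, a beta tubulin, made 2 of 15. The remaining lists held it in 1 of 14 zinc finger genes (ZSCAN12), 0 of 4 butyrophilins, 1 of 7 complement and cytokine genes (C2), 0 of 3 heat shock genes and 2 of 16 other genes near the upper border (CUTA and MLN). These counts describe the reference only. They were not joined to the peaks, and they say nothing of E-boxes outside these windows.

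Fold enrichment compares the fragments stacked at a summit with the background that the peak caller expected there, after adding 1 to each. Both quantities could be worked back from the fold and the −log10 p-value of each peak. The genome-wide background, which serves here as the measure of depth, was 7.79, 5.84 and 4.76 fragments in replicates 1, 2 and 3. By this measure replicate 1 was the deepest, but read totals were not used. In all, the lists held 24899, 16809 and 17298 peaks.

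The first comparison asked how densely MYC peaks were packed. In the stretch there were 22.7, 15.6 and 16.4 peaks per Mb in replicates 1, 2 and 3. The rest of chromosome 6 held 6.81, 4.26 and 4.27. MYC peaks were thus denser in the stretch in each replicate, by a ratio of 3.61 ± 0.261 (SD, n = 3). Both parts contributed. The histone and tRNA part held 19.5, 11.3 and 12.5 peaks per Mb, and the MHC part held 25.2, 19.0 and 19.6. The values of the parts overlapped between replicates, since the histone and tRNA part of replicate 1 exceeded the MHC part of replicate 2, but within each replicate the MHC part was denser (ratio 1.52 ± 0.203, SD, n = 3). Both ratios gave p = 0.25 in an exact two-sided sign-flip permutation test, which is the smallest p that 3 replicates allow. The ratio between the parts depended on the borders and was 1.04 ± 0.263 (SD, n = 3), within the spread between libraries, with the stretch trimmed to 26 to 33 Mb and the split moved down.

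**Figure D1:**
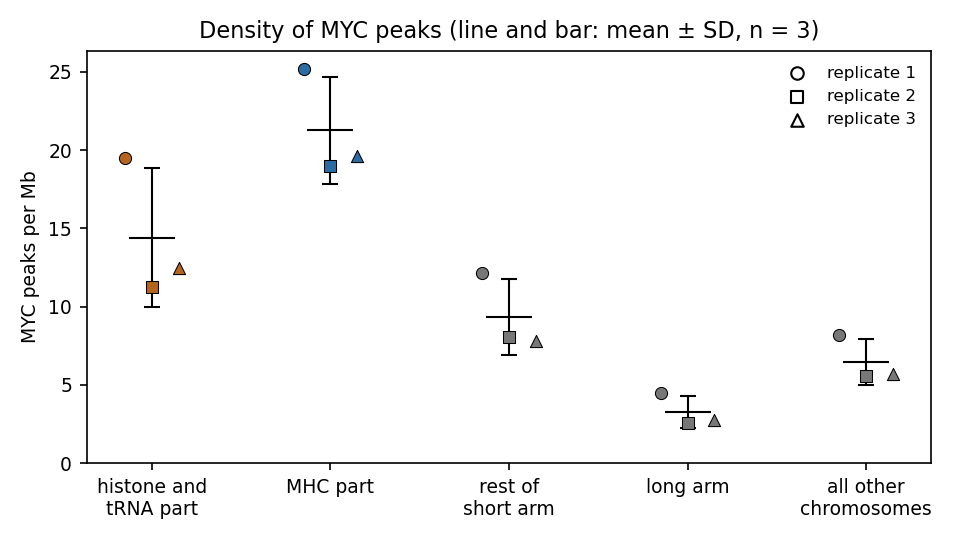
MYC peaks per Mb (y axis) in the histone and tRNA part, the MHC part, the rest of the short arm and the long arm of chromosome 6, and all other chromosomes. Symbols are the 3 replicates, lines and bars the mean ± SD; the MHC part is highest in each replicate, at 19.0 to 25.2 peaks per Mb.

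The choice of comparison set the size of the difference. The short arm outside the stretch held 12.2, 8.08 and 7.82 peaks per Mb, and the long arm held 4.48, 2.60 and 2.74. Against the rest of the short arm the ratio was 1.96 ± 0.125 (SD, n = 3), lower than against the rest of the chromosome. It was 2.31 ± 0.221 for the MHC part and 1.53 ± 0.121 for the histone and tRNA part, and above 1 in 3 of 3 replicates for both. Against all other chromosomes the stretch was 2.82 ± 0.0564 times as dense (SD, n = 3). All lengths include assembly gaps, which lower the density of a comparison that holds them.

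Following the study, places with a peak in at least 2 replicates were counted as consensus. The stretch held 145 consensus places, 63.6% of its places, which was close to the 62.4% over the whole genome. The 2 parts lay on either side of this share. In the histone and tRNA part 49 of 93 places were consensus (52.7%), and in the MHC part 96 of 135 (71.1%). The MHC part therefore held 19.2 consensus places per Mb, the histone and tRNA part 12.3 and the rest of chromosome 6 4.43.

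The parts also differed in how many places were found in all 3 replicates. In the histone and tRNA part these were 24 of 93 places, or 25.8% (95% exact binomial interval 17.3% to 35.9%). In the MHC part they were 79 of 135, or 58.5% (49.7% to 66.9%). The share was 40.5% on the rest of chromosome 6 and 45.0% over all places of the genome, so the parts fell on opposite sides of it. The intervals cover counting error only, and neighbouring places are not independent.

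The same order was seen when each replicate's own peaks were counted. In replicate 1, 30.8% of the peaks of the histone and tRNA part had a counterpart in both other lists, as did 64.3% in the MHC part. The shares were 62.2% against 88.4% in replicate 2 and 54.0% against 82.7% in replicate 3. The MHC part was higher by 29.5 ± 3.72 percentage points (SD, n = 3; exact two-sided sign-flip permutation test, p = 0.25, the smallest possible). The rest of chromosome 6 lay between the parts in each replicate, at 44.9%, 74.6% and 76.0%. Since a place counts only when all 3 lists hold it, the 3 values are not independent.

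**Figure D2:**
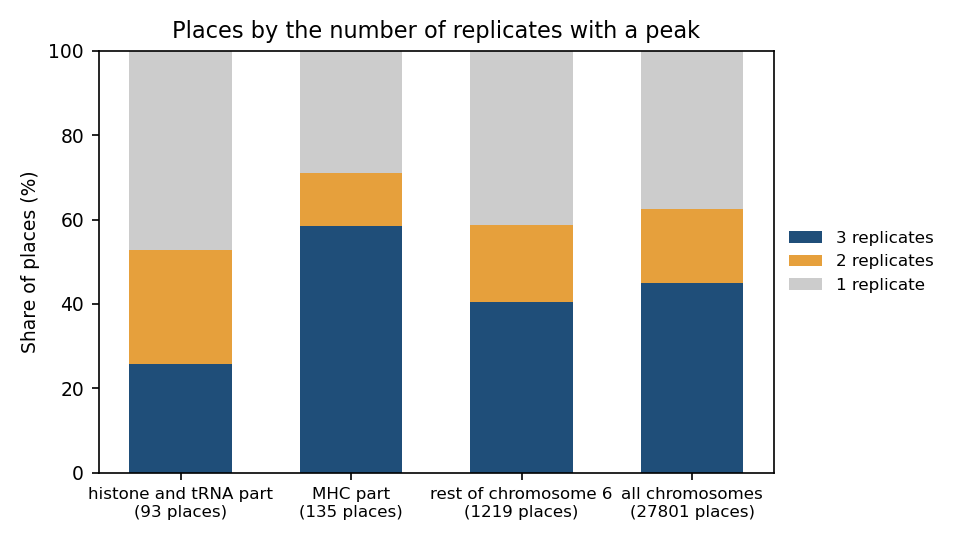
Share of places in percent (y axis) with a peak in 3, 2 or 1 replicates, for the histone and tRNA part, the MHC part, the rest of chromosome 6 and all chromosomes. The portion found in 3 replicates is 25.8% in the histone and tRNA part and 58.5% in the MHC part.

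Peaks of the histone and tRNA part were also weaker, so sharing was compared within bands of the deposited −log10 p. Peaks below 10 made up 43.6%, 42.2% and 44.0% of the histone and tRNA part in replicates 1, 2 and 3, against 18.3%, 28.4% and 32.7% of the MHC part. Within this band 1 of 34, 7 of 19 and 5 of 22 peaks of the histone and tRNA part were shared by every replicate. In the MHC part it was 3 of 23, 18 of 27 and 17 of 32. From 10 to 20 the shares were 24.0%, 72.2% and 68.4% in the histone and tRNA part and 47.6%, 96.4% and 93.9% in the MHC part. Hence the MHC part was higher within both bands in each replicate. At 20 or more nearly every peak was shared in both parts, with 17 of 19, 8 of 8 and 9 of 9 peaks against 58 of 61, 39 of 40 and 33 of 33. The bands are wide and the counts small, and the difference within a band was not tested.

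Places found in a single replicate numbered 44 in the histone and tRNA part (47.3% of its places) and 39 in the MHC part (28.9%). Over all places of the genome this share was 37.6%. Of the single-replicate places of the 2 parts, replicate 1 held 31 and 28, replicate 2 held 4 and 4, and replicate 3 held 9 and 7. Places of replicate 1 alone made up 33.3% and 20.7% of the parts, against 27.8% over the genome. Most such places were thus in replicate 1, the deepest library by its background. The same was seen on the rest of chromosome 6, where replicate 1 alone held 396 places of 1219. They were weak, with a median fold enrichment of 3.11 in replicate 1 for the histone and tRNA part and 3.37 for the MHC part. The strongest of them, chosen after their values were seen, was chr6:31678939-31679358 with a fold of 5.29 on 48 fragments in replicate 1. Places in exactly 2 replicates almost always included replicate 1, in the stretch as elsewhere. It was missing from 2 of 42 such places in the stretch, 12 of 223 on the rest of chromosome 6 and 296 of 4851 over the genome. The 2 places of the stretch were in the histone and tRNA part. They were chr6:26761743-26762277, with folds of 3.26 and 4.47 in replicates 2 and 3, and chr6:28864394-28864961, with folds of 2.63 and 3.67. Replicate 1 gave 1.73 and 1.56 times as many peaks as replicates 2 and 3 in the histone and tRNA part, and 1.33 and 1.29 times as many in the MHC part.

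The strength of the peaks was compared next. Median fold enrichment in the histone and tRNA part was 3.56, 4.21 and 4.34 in replicates 1, 2 and 3. It was 4.67, 5.12 and 5.28 in the MHC part. The rest of chromosome 6 lay between them in each replicate, at 4.12, 4.39 and 4.71. On the log2 scale the median fold of the MHC part exceeded that of the histone and tRNA part by 0.32 ± 0.06 and that of the rest of chromosome 6 by 0.19 ± 0.03 (SD, n = 3). The histone and tRNA part minus the rest was −0.13 ± 0.08. Each of these differences had the same sign in 3 of 3 replicates, with p = 0.25 in the exact two-sided sign-flip permutation test, the smallest it can give. The quartiles of single peaks overlapped widely between the parts.

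**Figure D3:**
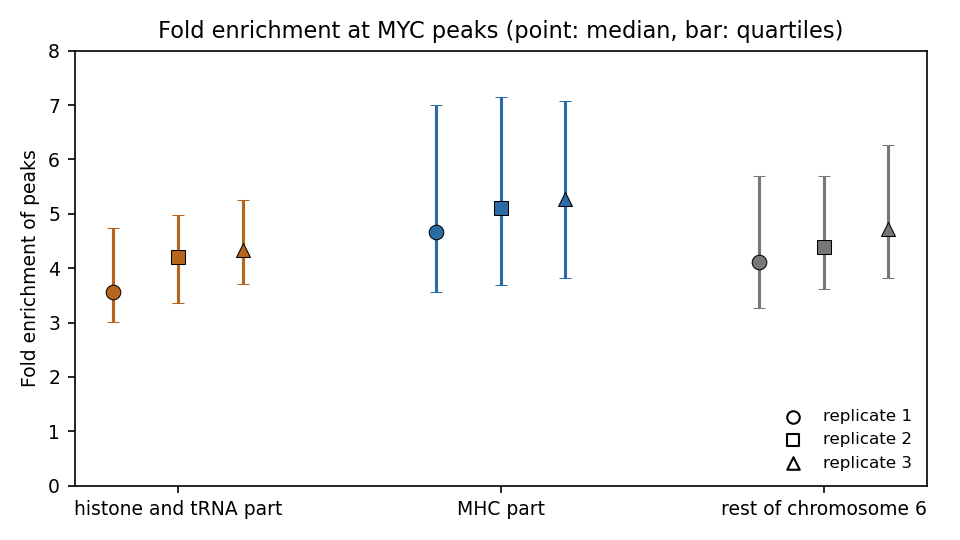
Fold enrichment of MYC peaks (y axis) in the histone and tRNA part, the MHC part and the rest of chromosome 6. Points are the median of each replicate and bars the quartiles over its peaks; the MHC part has the highest median in each replicate, from 4.67 to 5.28.

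The summits behind these values held a median of 35, 30 and 25 fragments in the histone and tRNA part and 49, 36 and 32 in the MHC part. Peaks were wider in the MHC part, with medians of 621.5, 488 and 482 bp, than in the histone and tRNA part, with 451.5, 416 and 356 bp (ratio 1.30 ± 0.112, SD, n = 3). The parts lay closer together at places found in all 3 replicates. There the median of the geometric mean fold was 5.57 for 24 places of the histone and tRNA part, 5.90 for 79 places of the MHC part and 5.28 for 494 places of the rest of chromosome 6. The share of these places at a geometric mean fold of 10 or more was 16.7% (4 places), 16.5% (13 places) and 10.5% (52 places), almost the same in both parts.

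Fold enrichment at shared places agreed between libraries in both parts. Across the places called in both lists of a pair, Pearson's r of log2 fold was 0.862, 0.882 and 0.798 in the histone and tRNA part for replicates 1 and 2, 1 and 3, and 2 and 3 (35, 36 and 26 places). Spearman's rho was 0.764, 0.807 and 0.728. In the MHC part r was 0.833, 0.882 and 0.911 and rho 0.791, 0.864 and 0.871 (86, 89 and 79 places). These describe places of shared libraries, which are not independent replicates, and carry no p. The median distance between summits of a place was 38, 35.5 and 44 bp in the histone and tRNA part and 34, 31 and 34 bp in the MHC part.

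**Figure D4:**
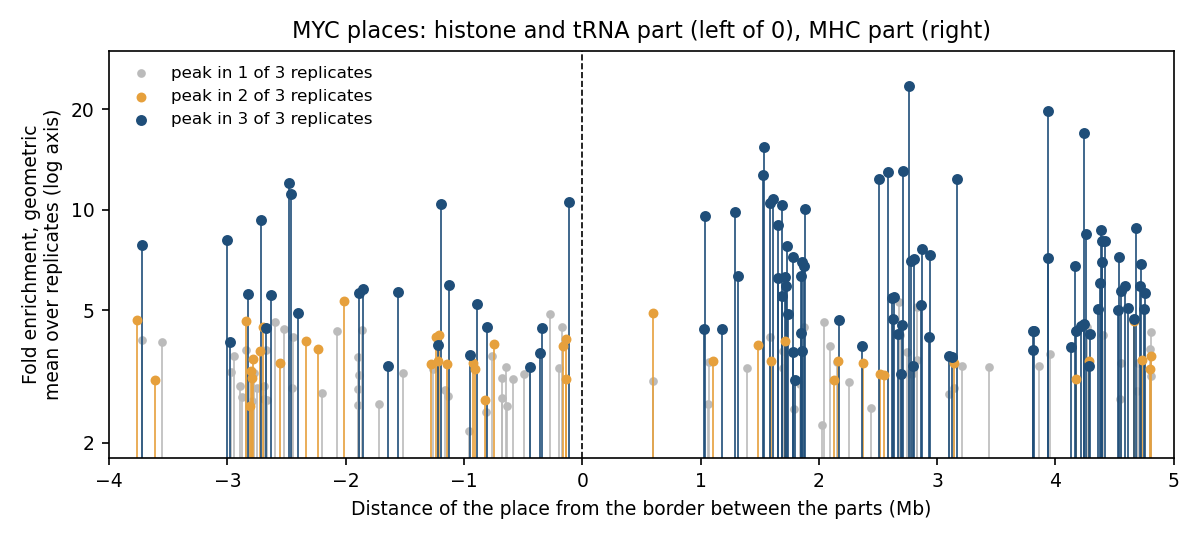
Geometric mean fold enrichment of each of the 228 places (y axis, log scale) against its distance from the border between the parts in Mb (x axis, histone and tRNA part left of 0). Colours give the number of replicates with a peak; the tallest place, at a fold of 23.5, is in the MHC part, and a stretch around the border is nearly empty.

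MYC places were unevenly spread along the stretch. Counted in bins of 1 Mb, consensus places numbered 4 from 25 to 26 Mb, 19 from 26 to 27, 12 from 27 to 28 and 14 from 28 to 29 Mb. In the MHC part they numbered 1 from 29 to 30 Mb, 30 from 30 to 31, 24 from 31 to 32, 9 from 32 to 33 and 32 from 33 to 34 Mb. Among the 171 bins of chromosome 6, the bin from 33 to 34 Mb ranked 1, that from 30 to 31 Mb ranked 2 and that from 31 to 32 Mb ranked 4, while that from 29 to 30 Mb ranked 121. The other 162 bins had a median of 3 consensus places, and the fullest of them, from 43 to 44 Mb, had 25. Thus the MHC part contained at once the fullest bins of the chromosome and a nearly empty one.

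The longest stretch without any place ran for 704 kb, from 28892293 to 29596148, across the border of the parts. Another of 428 kb followed, from 29601323 to 30028910, so that 29 to 30 Mb held 2 places in all. The gap from 25447464 to 25992129 was 545 kb long and that from 32435645 to 32805808 was 370 kb long. Absence of a peak does not show absence of binding. No source used here says how reads that align to several positions were treated, which limits what a gap shows among near-identical copies of histone, tRNA or HLA genes.

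Consensus places lay closest together in the MHC part, which also held the most of them per Mb. Their density was 19.2 per Mb there, 12.3 in the histone and tRNA part and 4.43 on the rest of chromosome 6. Spacing was not compared at equal density, so the values below do not separate clustering from density. Neighbouring consensus summits were a median of 17.7 kb apart there, 35.8 kb in the histone and tRNA part and 75.2 kb on the rest of chromosome 6. A neighbour within 10 kb was present for 65.6% of consensus places in the MHC part, 12.2% in the histone and tRNA part and 28.8% on the rest of the chromosome. The order depended on the distance. Within 2 kb it was 5 of 96, 2 of 49 and 93 of 717 consensus places, with the rest of the chromosome highest. Runs were counted in the 2 parts only. The MHC part held 7 runs of at least 5 consensus places with no step over 50 kb, and these took up 67 of its 96 consensus places. The histone and tRNA part held 3 such runs with 17 of its 49.

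The longest run, chr6:30488772-30796525, had 18 consensus places in 308 kb, 15 of them in all 3 replicates, with a median geometric mean fold of 6.27. The run chr6:31509354-31708317 had 11 places, 9 in all replicates, with a median of 4.69, and chr6:33129319-33291605 also had 11, with 9 in all replicates and a median of 4.31. All 6 places of chr6:30850327-30882454 and all 6 of chr6:33358852-33422736 were found in every replicate, with medians of 6.54 and 7.50. In chr6:33524670-33609280 all 5 places were in every replicate, with a median of 5.70, and in chr6:33662080-33808171 it was 6 of 10, with a median of 4.86. Over all runs, 56 of 67 consensus places of the MHC part and 6 of 17 of the histone and tRNA part were in all replicates, a difference that was not tested. Among all consensus places, inside or outside runs, this share was 82.3% in the MHC part and 49.0% in the histone and tRNA part. It was 72.0% over the whole genome. The counts in runs thus repeat the difference between the parts and show nothing particular to runs. In chr6:26156434-26217514, 1 of 6 consensus places was in all 3 replicates and the median fold was 3.42. It was 3 of 5 in chr6:26273188-26365991, a share no lower than in the least shared run of the MHC part, with a median of 4.46, and 2 of 6 in chr6:27720806-27806969, with a median of 4.04.

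The strongest places of the MHC part differed in their spread between libraries. The first was chr6:31763009-31764131, with folds of 26.6, 20.6 and 23.5 in replicates 1, 2 and 3 (mean 23.6 ± 2.98, SD, n = 3) on 289, 150 and 141 fragments. It ranked 4 among the 597 places of chromosome 6 found in all 3 replicates, and its 3 summits lay within 19 bp. The second was chr6:32935886-32938368, with 20.8, 19.2 and 19.5 (mean 19.8 ± 0.893, SD, n = 3) on 187, 130 and 111 fragments. Its local background was at the genome-wide level in replicates 2 and 3. At 2483 bp it was also among the widest places, after chr6:30687562-30690119 at 2558 bp, the widest of the stretch. The third was chr6:33239070-33240279, with 20.1, 17.8 and 13.8 (mean 17.3 ± 3.19, SD, n = 3). The first place was above the second within each replicate. Across libraries their ranges met narrowly, at 20.6 in replicate 2 for the first and 20.8 in replicate 1 for the second.

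The fourth, chr6:30538654-30539697, had folds of 13.8, 15.8 and 16.8 (mean 15.5 ± 1.57, SD, n = 3) and the fifth, chr6:31707540-31708317, had 14.4, 12.5 and 12.4 (mean 13.1 ± 1.08, SD, n = 3). The order of the third and the fourth was not stable, because replicate 3 reversed it. Nor was that of the fourth and the fifth, which replicate 1 reversed. The places of ranks 6 to 10 had geometric mean folds between 10.8 and 12.97. Among these, chr6:30523258-30525520, varied more, with folds of 10.04, 16.4 and 12.6. It had the highest background of any place in the stretch, 2.03 times the genome-wide level in replicate 1, against 1.00 and 1.22 in replicates 2 and 3, so the low fold of replicate 1 stood on the most fragments, 168 against 111 and 85.

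The strongest places of the histone and tRNA part were lower. They were drawn from 24 places found in all 3 replicates, against 79 in the MHC part. The first was chr6:26520575-26521166, with folds of 13.1, 10.7 and 12.5 (mean 12.1 ± 1.26, SD, n = 3) on 114, 72 and 71 fragments, and a background at the genome-wide level in all 3 replicates. It ranked 43 of 597 on chromosome 6. The 20 strongest of these 597 held 0 of the 24 places of the histone and tRNA part and 3 of the 79 of the MHC part. The other 17 were among the 494 places of the rest of the chromosome, a share close to that of the MHC part. With 24 places, a count of 0 does not set the histone and tRNA part apart. The second, chr6:26537418-26538884, had folds of 12.6, 10.8 and 10.1 (mean 11.2 ± 1.31, SD, n = 3). The third, chr6:28890714-28892292, had 10.2, 10.96 and 10.6 (mean 10.6 ± 0.369, SD, n = 3) and was the last place before the empty stretch. Replicate 2 put these 3 places in the reverse order, with 10.7, 10.8 and 10.96, so their order is not firm.

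The fourth, chr6:27804971-27806969, had folds of 12.9, 11.002 and 7.99 (mean 10.6 ± 2.46, SD, n = 3), with summits 1481 bp apart. The boundaries differed between libraries there. Replicate 1 called a single peak of 1971 bp, replicate 2 called 2 peaks with summits 1499 bp apart, and replicate 3 called 3. In replicate 3 the right-hand peak was the higher, with 7.99 against 7.47 on the left, while in replicate 2 the left-hand peak was, with 11.002 against 5.70. The fifth, chr6:26284839-26286446, had folds of 10.8, 8.25 and 9.03 (mean 9.37 ± 1.32, SD, n = 3) and summits within 2 bp. The geometric mean folds of ranks 6 to 10 lay between 5.65 and 8.11. Among them chr6:27870634-27871233 spread most, with folds of 7.05, 3.71 and 7.99, and its background was 1.24, 1.45 and 1.00 times that replicate's genome-wide level.

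Several peaks of the same list fell into the same place at 10 of the 228 places, 4 in the histone and tRNA part and 6 in the MHC part. At chr6:31801944-31804331 each replicate called a pair of peaks, with summits 1397, 1411 and 1748 bp apart. The left-hand peak had folds of 8.10, 7.16 and 6.25 and the right-hand peak 7.20, 5.17 and 5.87, so the left was higher in each library. At chr6:26537418-26538884 replicates 2 and 3 called a second peak 647 and 670 bp to the right of the main summit, with folds of 4.08 and 4.94, where replicate 1 called a single peak of 1466 bp.

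The local background at peaks was examined last, because it is the denominator of fold enrichment. The lowest background of each list was taken as the genome-wide level, and a peak above it stood on a raised local background. In the histone and tRNA part 10.3%, 57.8% and 48.0% of peaks had only the genome-wide level in replicates 1, 2 and 3. In the MHC part it was 1.59% (2 of 126 peaks), 26.3% and 23.5%. The MHC part was lower in 3 of 3 replicates, by 21.6 ± 11.7 percentage points (SD, n = 3; exact two-sided sign-flip permutation test, p = 0.25, the smallest possible). Replicate 1 stood far below the other replicates in both parts.

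**Figure D5:**
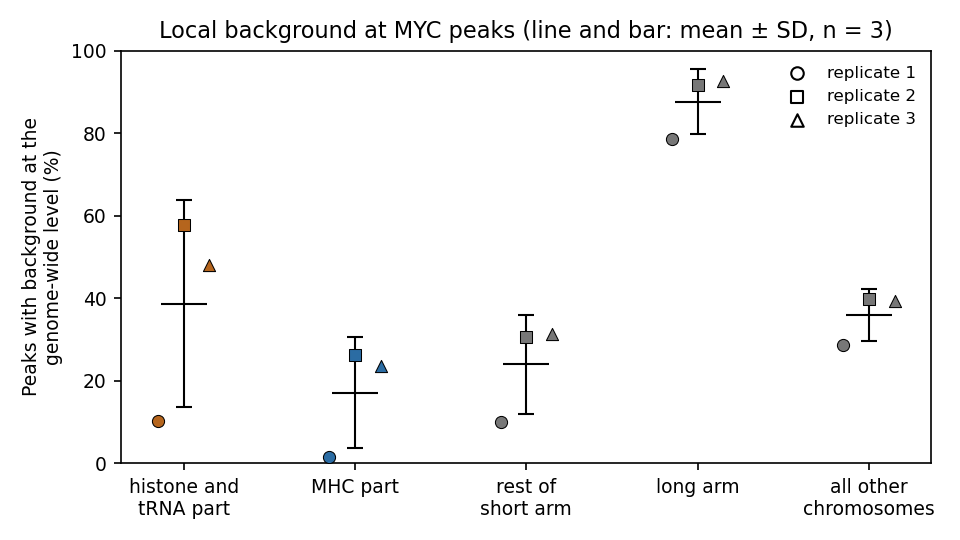
Share of MYC peaks whose local background was at the genome-wide level, in percent (y axis), in the 2 parts of the stretch, the rest of the short arm and the long arm of chromosome 6, and all other chromosomes. Symbols are the 3 replicates, lines and bars the mean ± SD; the long arm stands at 78.7% to 92.6%, above each group of the short arm.

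These values differed between the chromosome arms, and in the mean the 2 parts lay on opposite sides of the rest of their arm. Outside the stretch this share was 10.1%, 30.6% and 31.3% on the short arm, and on the long arm 78.7%, 91.8% and 92.6%. The histone and tRNA part was above the rest of the short arm by 14.7 ± 13.6 percentage points (SD, n = 3). By replicate this was 0.19, 27.2 and 16.7 points, so replicate 1 showed almost no difference. The MHC part was below the rest of the short arm by 6.86 ± 2.29 points (SD, n = 3), in 3 of 3 replicates. Both differences gave p = 0.25 in the exact two-sided sign-flip permutation test, the smallest possible. The median background relative to the genome-wide level was 1.15, 1.04 and 1.06 in the stretch. It was 1.15, 1.04 and 1.04 on the rest of the short arm and 1.00 in each replicate on the long arm. The stretch thus had a higher background than the rest of chromosome 6 as a whole (ratio 1.06 ± 0.0219, SD, n = 3) but differed from the rest of the short arm by no more than the spread between libraries (1.004 ± 0.00798, SD, n = 3). Between the parts, the MHC part had a median relative background of 1.17, 1.05 and 1.07 and the histone and tRNA part 1.10, 1.00 and 1.00 (ratio 1.06 ± 0.00797, SD, n = 3). The MHC part therefore had the higher fold and also the higher denominator. Against the rest of the short arm the parts lay on opposite sides, with ratios of 1.02 ± 0.00847 for the MHC part and 0.961 ± 0.000895 for the histone and tRNA part (SD, n = 3), each in 3 of 3 replicates. The part that the arm plays in these values was not tested.

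The borders at 25 and 34 Mb did not cut through groups of places. The nearest place below 25 Mb was 18.6 kb away, in 1 replicate, with a fold of 2.36, and the nearest above it was 239 kb away, in 2 replicates, with a geometric mean fold of 4.66. At 34 Mb the nearest places were 192 kb inside, in 2 replicates with 3.65, and 123 kb outside, in 1 replicate with 2.53.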

How the data were processed

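MYC was measured by ChIP-seq in 3 libraries. According to the study's methods and processing notes, the authors aligned reads to hg19 with Bowtie2 and used MACS2 with a q-value limit of 0.05 on every library separately. Program versions, the control library and the handling of duplicates were not stated in these sources. The deposited fold enrichment is a ratio at the summit, the deposited −log10 p-value and −log10 q-value belong to the same summit, and the deposited score, a whole number derived from the q-value, was not used. Read totals were not used, and depth was read from the background.

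Whole fragment numbers were recovered as those for which the Poisson −log10 p-value matched within 0.001, which succeeded for 100% of peaks. The lowest background of a list was its genome-wide level. Recovery and merging were tested on simulated data. Peaks per Mb used the distance between borders, assembly gaps included. The end of the last peak, 170893983, was taken as the end of chromosome 6 and 58 Mb as the end of the short arm. Every other chromosome also ended at its last peak. Positions count from 1. Values within each replicate were compared by an exact two-sided sign-flip permutation test over replicates, on logarithms for ratios. Python 3.11.15, numpy 2.4.6, pandas 2.3.3, scipy 1.17.1 and matplotlib 3.10.9 were used.

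The genome and annotation used here are of hg38: 715 peaks end past its chromosomes, so no position was carried over, and no sequence at a peak was read. The planned counts of genes at start sites and of CACGTG at summits were not run. RefSeq of GRCh38.p14 was used by gene name only.

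Named places were the 10 of each part with the highest geometric mean fold among those in all 3 replicates, the first 5 with all values, and the widest place and that with the highest background. Other places were named after their values were seen. The members and lists were chosen with earlier results of these data known.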

Additional observations from a re-analysis of the deposited data

How the results depend on the processing

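Alternatives planned were q-values of at most 0.01 and 0.001, equal numbers of the strongest peaks, other borders (26 to 33 Mb, with the split moved down), leaving out each replicate, a reciprocal overlap of 50%, a consensus of 3 of 3 replicates, other comparison regions and fold with nothing added. Of 78 values, 7 moved and 1 reversed in its mean. The mean of the others kept its direction or size, but not every replicate did. The ratio of the density of the parts was 1.04 ± 0.263 with the other borders (p = 1 in the exact permutation test), and the ratio of the background was 1.004 ± 0.00798 against the rest of the short arm (p = 0.75), both within the spread between libraries. The density ratio of the stretch to the comparison was 1.96 to 3.75, that of the MHC part to the histone and tRNA part 1.04 to 1.73, and consensus places 103 to 144. The log2 fold difference between the MHC part and the histone and tRNA part was 0.26 to 0.34. Against the comparison it was 0.10 to 0.20 for the MHC part and −0.16 to −0.09 for the histone and tRNA part. The ratio of the background reversed to 0.984 against all other chromosomes; the cause was not tested. The share of places found in every replicate moved in the MHC part to 40.6% with reciprocal overlap, which splits places (18.2% in the histone and tRNA part), and to between 67.4% and 72.1% when a replicate was left out. In the histone and tRNA part it moved to between 40.4% and 41.8% when a replicate was left out, since fewer lists then have to share a place. The arms given apart and the bands of −log10 p were added after seeing the data.

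No paired analysis was possible between MYC and IgG because the files used here hold peaks of MYC libraries alone. Regions were compared within each MYC replicate throughout. Counts of genes at start sites and of CACGTG at summits, with their alternatives, were not run. The summit fragments limit what weak peaks show: a peak in a single replicate held a median of 29 fragments in replicate 1 of the histone and tRNA part and 34 in the MHC part.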
